A study of Mus musculus with 12 samples.

Results

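The genes described here are 10 rows of the count table, chosen by symbol out of 23420: the R-spondin receptors Lgr4, Lgr5 and Lgr6, the ubiquitin ligase genes Znrf3 and Rnf43, the scaffold genes Axin1 and Axin2, and the TCF/LEF factor genes Lef1, Tcf7l1 and Tcf7l2. All 10 were found in the table, and 9 had enough counts for a test, with Lgr5 the exception. The libraries came from basal cells of the hard palate of 6 FVB mice, each heterozygous for K5-tTA and for tetO-H2B-GFP. In these mice the keratin 5 promoter drives a tetracycline-regulated activator, so the histone-GFP label is laid down in keratin 5-expressing cells and is diluted by division once doxycycline stops its synthesis. After a chase of 14 days, viable cells stained for CD49f (integrin α6) were sorted from each mouse into a GFP-HI fraction, labelled as infrequently dividing, and a GFP-LO fraction, labelled as frequently dividing. Mice B1M, B3M, B4M, B5M and B7M were 49 days old and B7F was 71 days old. Each library was made from the total RNA of 200 to 1000 sorted cells, and both fractions of all 6 mice carry the same transgenes and had the same chase. The genes were picked with results of the GFP-HI against GFP-LO comparison in view, so their values in that comparison describe these libraries and give no independent support.

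Wnt ligands bind Frizzled and LRP receptors and thereby stop the destruction complex, built on the scaffold AXIN, from marking β-catenin for degradation. Stabilised β-catenin enters the nucleus and acts with TCF/LEF factors on its target genes. The membrane ubiquitin ligases ZNRF3 and RNF43 remove Frizzled from the cell surface, and R-spondins bound to LGR4, LGR5 or LGR6 take those ligases away and so raise sensitivity to Wnt. AXIN2, ZNRF3, RNF43 and LEF1 are themselves products of β-catenin target genes in many tissues, which makes the first 3 a negative feedback. Lgr5 and Lgr6 are widely used as stem cell markers, Lgr5 in the intestine and the hair follicle and Lgr6 in skin and other epithelia.

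The libraries held 6678444 to 10547665 counts, of which the ribosomal precursor Rn45s took 31.5% to 59.8%. Levels are given as CPM, counts per 1000000 on library sizes scaled by trimmed mean of M-values, and 3 counts, the limit that a count of 0 allows, corresponded to 0.258 to 0.433 CPM. Both B1M and B3M had a GFP-HI library that stood apart, with 12312 and 12810 genes detected against 15770 to 19023 in the other 4 GFP-HI libraries. Their GFP-LO libraries were also the lowest of that fraction, with 13101 and 14872 genes detected against 15474 to 17376 in the other 4. Over all 11719 tested genes the SD of the within-mouse log2 difference was 1.35 in B1M and 0.99 in B3M, against 0.43 to 0.56 in the other mice. Log2 fold changes of the members that moved by over 1.5 times when either mouse was left out are given with and without it. The 7 basal keratinocyte markers were all present and summed to 14363 to 23047 CPM in GFP-HI, against 16858 to 23820 CPM in the GFP-LO libraries, and the 12 suprabasal markers summed to 4676 to 9847 and 5035 to 7231 CPM, with Krt14 and the stress keratin gene Krt6a as the most abundant of each list. Of the lists of other cell types, smooth muscle and pericyte markers had 74.4 to 117 CPM in sum over all libraries, led by Cspg4, and Merkel cell markers 47.2 to 77.4 CPM, led by Sox2. Schwann and nerve markers summed to 9.32 to 22.3 CPM (mostly Mbp), and melanocyte markers to 7.13 to 18.2 CPM. Of the melanocyte markers, Mitf had means of 7.54 CPM in GFP-HI and 4.07 in GFP-LO, and Pmel 3.94 and 4.46 CPM. Leukocyte markers, led by Cd74, reached at most 28.6 CPM and endothelial markers, led by Pecam1, at most 5.41 CPM. The defining markers Des, Krt20, Sox10, Tyrp1, Cd3e and Cldn5 had at most 3 counts in any library, and Emcn was at 0 in all.

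Compared per kilobase of exon, so that genes of different length can be ranked, Lgr4 was the most abundant of the 10 genes by a wide margin, at 47.1 ± 6.36 CPM per kb (SD, 12 libraries). It stood above Tcf7l2, the next in order at 10.01 ± 1.99 CPM per kb, in 12 of 12 libraries. Axin1 followed at 8.60 ± 1.71 CPM per kb, below Tcf7l2 in 10 of 12 libraries. The next 5 genes lay within their own spread of each other: Tcf7l1 had 6.02 ± 1.40, Znrf3 5.84 ± 1.29, Lgr6 5.51 ± 2.60, Rnf43 4.92 ± 1.60 and Lef1 4.91 ± 1.27 CPM per kb. Each of the first 4 exceeded its lower neighbour in only 5 to 7 of 12 libraries. Axin2 was lower, at 3.50 ± 1.37 CPM per kb, and below Lef1 in 10 of 12 libraries. Lgr5 closed the order at 0.07 ± 0.12 CPM per kb.

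**Figure D1:**
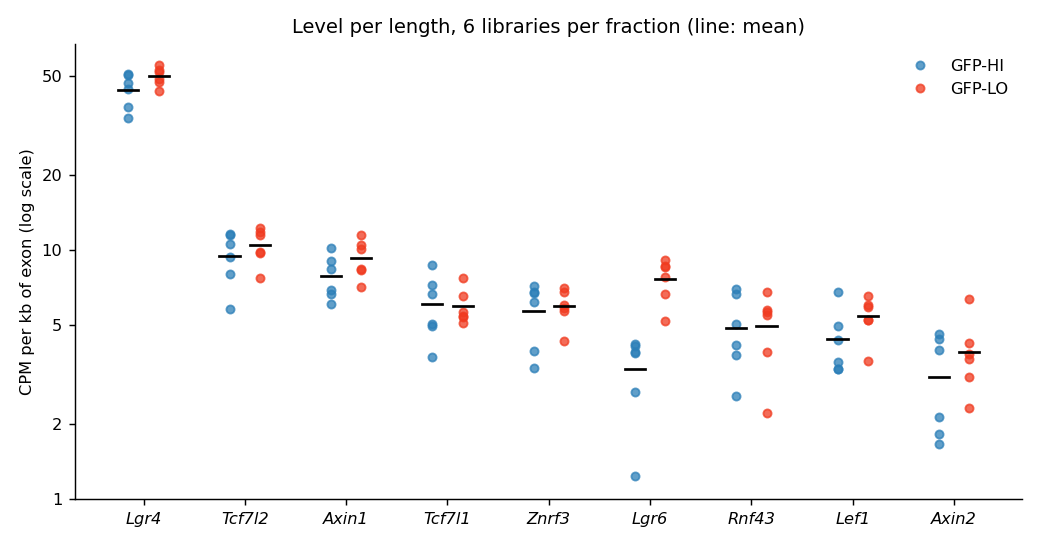
Level of each tested member per kilobase of exon (CPM per kb, log axis) in the 6 GFP-HI libraries (blue) and the 6 GFP-LO libraries (red), with the mean of each fraction as a line. Lgr4 lies far above the other genes, and the 2 clouds of points are separate for Lgr6 and overlap for the other 8 genes.

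The place of Lgr6 in this order differed between the fractions. In GFP-LO it ranked 4th, at 7.68 ± 1.49 CPM per kb (SD, n = 6), above Tcf7l1 in 5 of 6 libraries. In GFP-HI it ranked 8th, at 3.34 ± 1.17 CPM per kb (SD, n = 6), below Lef1 in 5 of 6 libraries and above Axin2 in 2 of 6. The genes at the ends of the order, Lgr4, Tcf7l2 and Axin1 at the top and Axin2 and Lgr5 at the bottom, held the same order in both fractions.

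Among the receptors, Lgr6 was lower in the GFP-HI fraction of every mouse. Its levels in GFP-HI and GFP-LO were 15.2 and 18.8 CPM in B1M, 4.46 and 33.1 CPM in B3M, and 14.97 and 31.1 CPM in B4M. They were 14.0 and 31.4 CPM in B5M, 9.74 and 28.2 CPM in B7F, and 14.2 and 24.2 CPM in B7M. The highest GFP-HI library (B1M, 15.2 CPM) lay under the lowest GFP-LO library (B1M, 18.8 CPM), so the fractions did not overlap. The gap between these libraries, with 124 and 150 counts, is within counting error. Their 95% Poisson intervals, 12.7 to 18.2 and 15.9 to 22.1 CPM, overlap. Of all 11719 tested genes 0.128% had every GFP-HI library under every GFP-LO library and 0.0683% every one above, and 2.64% were lower in GFP-HI in all 6 mice. The means were 12.1 ± 4.24 and 27.8 ± 5.38 CPM (SD, n = 6), and the edgeR estimate was a 2.37-fold lower level in GFP-HI (log2 fold change −1.25, 95% interval −1.83 to −0.67). In the fit over all genes this did not pass the threshold of 0.05 (edgeR quasi-likelihood adjusted p = 0.071).

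The size of the Lgr6 difference varied between mice, from 1.24-fold in B1M and 1.71-fold in B7M to 2.89-fold in B7F and 7.41-fold in B3M. The B3M value rests on 34 counts in its GFP-HI library, whose 95% Poisson interval of 3.09 to 6.24 CPM (counting error only) lies under the intervals of the other 5 GFP-HI libraries, the lowest of which starts at 7.65 CPM. Without B3M the log2 fold change was −0.96 (edgeR adjusted p = 0.11). Without B1M it was −1.42 (edgeR adjusted p = 0.0072), a call where 0.118% of genes were called lower, and without both mice it was −1.12 (edgeR adjusted p = 2.0e-04), where 0.285% were. DESeq2 on all 12 libraries also called Lgr6 lower (adjusted p = 5.3e-04, where 0.196% of genes were), as did edgeR without a count filter (adjusted p = 1.5e-06, where 0.206% were). With B4M, B5M, B7F or B7M alone left out, Lgr6 was not called (edgeR adjusted p = 0.25, 0.21, 0.26 and 0.13). In such bulk samples fewer cells with Lgr6 and less Lgr6 RNA per cell cannot be told apart.

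Markers of fibroblasts, which a sort on CD49f should leave out, had a lower sum in GFP-HI through Dcn alone. The 10 genes of this list summed to 256 to 476 CPM in GFP-HI, against 359 to 619 CPM in the GFP-LO libraries, lower in GFP-HI in 6 of 6 mice. Dcn (decorin) made up most of it. The other 9 genes, Col1a1, Col1a2, Col3a1, Vim and Pdgfra among them, summed to 3.54 to 21.3 CPM in GFP-HI, against 2.32 to 6.04 CPM in the GFP-LO libraries. Without Dcn the sum was lower in GFP-HI in 0 of 6 mice. Dcn itself fell in the GFP-HI fraction (327 ± 83.9 against 456 ± 92.2 CPM, n = 6, edgeR adjusted p = 0.0031), and its part in the Lgr6 difference was not tested. Pdgfra, a defining fibroblast marker, had at most 3 counts in any library.

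Lgr6 lies on the minus strand of chromosome 1 (134986353 to 135105276, mm10, 18 exon blocks in the deposited gene model). Its promoter is shown because it is the member whose levels separated the fractions, as 300 bases 5′ to 3′ from 250 before to 50 after the transcription start in RefSeq (GRCm38.p6), in lower case because it holds none of the TCF/LEF motif letters searched. The words searched, on both strands, were CTTTGAA as the first, CTTTGAT as the next, CTTTGTA after that and CTTTGTT as the last, and at least 1 of them occurs in 16.9% of all 32851 RefSeq mouse promoter windows of this length.
Lgr6, chr1:135105227-135105526, minus strand: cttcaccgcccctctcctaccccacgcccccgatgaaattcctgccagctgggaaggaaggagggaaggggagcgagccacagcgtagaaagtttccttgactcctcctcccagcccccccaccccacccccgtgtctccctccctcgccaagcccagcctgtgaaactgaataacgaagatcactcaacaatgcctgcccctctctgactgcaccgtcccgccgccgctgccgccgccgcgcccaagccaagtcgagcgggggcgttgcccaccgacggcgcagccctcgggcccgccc
Promoters were found for 7 of the 10 members, 12 windows in all, and 2 of the 12 (16.7%) held a motif, one of Lef1 and one of Tcf7l2, both printed with those genes. A match is a run of letters and no evidence of binding, and no match says only that these letters are not in the window.

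Lgr4, the broadly expressed R-spondin receptor (chromosome 2, 109917647 to 110014257, plus strand, mm10 like all positions of genes here), had a far smaller difference. In GFP-HI it had 172 CPM in the lowest library, a median of 231 and 259 CPM in the highest, and in GFP-LO 221, 255 and 283 CPM. It was lower in GFP-HI in 4 of 6 mice, by up to 0.57 on the log2 scale in B1M, and slightly higher in B3M and B7M (0.09 and 0.06). The fractions overlapped, and the 1.14-fold difference had a 95% interval of log2 −0.39 to just under 0 (edgeR adjusted p = 0.68). Without B1M its log2 fold change was −0.12, beside −0.19 over all mice. With at least 1218 counts in each library, Lgr4 is the most precisely measured of the members.

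Lgr5 (chromosome 10, 115450314 to 115587780, minus strand) was barely detected. Its 35 counts over the 12 libraries comprised 13 in GFP-HI and 22 in GFP-LO, 4 libraries had 0 counts, and only 3 libraries had more than 3. B7F, the 71-day-old mouse, held 22 of the 35 counts (62.9%), with 6 in GFP-HI and 16 in GFP-LO (0.79 and 1.88 CPM). The B7F libraries also detected the most genes of their fractions (19023 and 17376), and the cause of its higher Lgr5 counts was not tested. In the other 5 mice together 7 counts fell in GFP-HI and 6 in GFP-LO. No difference between the fractions was detectable for Lgr5 at this depth.

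Summed per kilobase, the 3 receptors reached 47.5 ± 6.42 CPM per kb in GFP-HI, against 57.9 ± 3.61 in the GFP-LO libraries (n = 6, SD). Lgr4 made up 92.6% ± 3.06 of that sum in GFP-HI and 86.5% ± 2.97 in GFP-LO, and Lgr6 7.27% ± 3.06 and 13.4% ± 2.95. The Lgr6 share was lower in GFP-HI in 5 mice, for example 2.38% against 16.2% in B3M and 10.8% against 16.4% in B4M. B1M went the other way, at 10.04% against 8.52%, where Lgr4 was 1.48-fold and Lgr6 1.24-fold lower in GFP-HI.

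**Figure D2:**
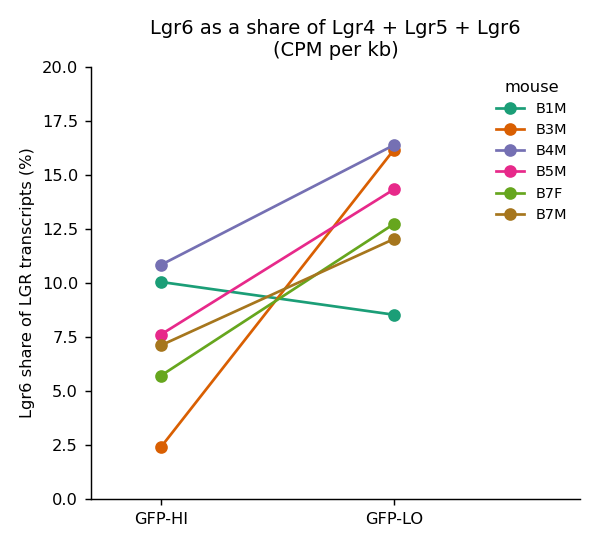
Lgr6 as a percentage of the summed CPM per kb of Lgr4, Lgr5 and Lgr6 in the GFP-HI and GFP-LO library of each mouse, joined by lines. The share is lower in GFP-HI in 5 mice and higher in B1M (10.04% against 8.52%).

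The ligands of these receptors were close to absent from the sorted cells. Rspo1, Rspo2, Rspo3 and Rspo4 had 9, 14, 9 and 16 counts over all 12 libraries, at most 6 in any one, and none was tested. Their highest level in a library was 0.85 CPM, for Rspo4. Counts above the 3 that a count of 0 allows were rare: Rspo1 exceeded them in 1 library, Rspo2 in 2, Rspo3 in 1 and Rspo4 in 2.

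**Figure D3:**
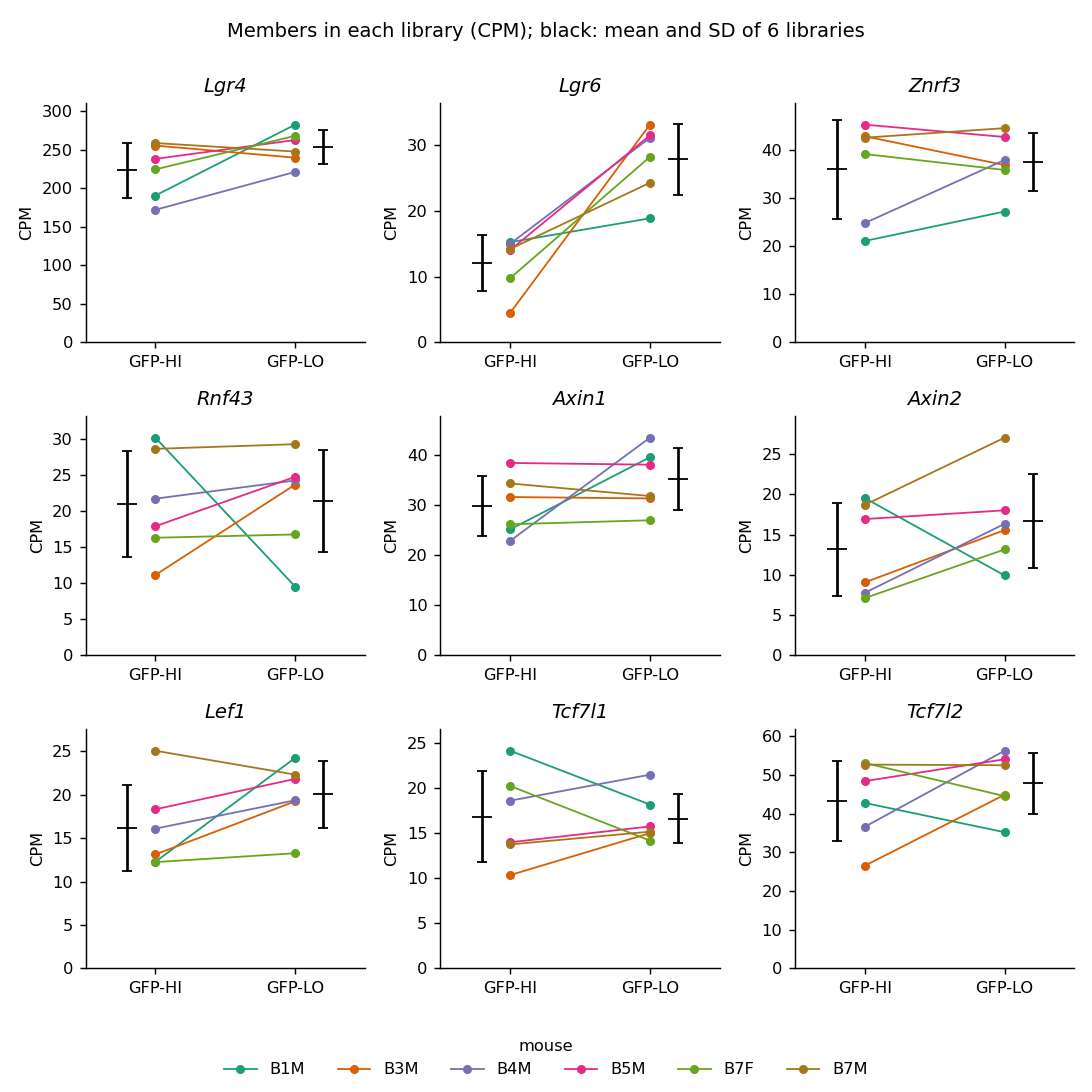
CPM of the 9 tested members in each library, with the GFP-HI and GFP-LO library of a mouse joined by a line in its colour and the mean and SD (n = 6) in black beside each fraction. Lines fall from right to left in all 6 mice for Lgr6, while those of the other genes cross or run level, and B1M runs against the other mice for Rnf43 and Axin2.

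Of the 2 ligase genes that act against Frizzled receptors, Znrf3 (chromosome 11, 5276329 to 5444847, minus strand) did not separate the fractions. Its lowest, median and highest libraries had 21.1, 40.9 and 45.4 CPM in GFP-HI and 27.3, 37.5 and 44.6 CPM in GFP-LO. It was higher in GFP-HI in 3 mice and lower in 3, with a log2 fold change of −0.10 (95% interval −0.40 to 0.20, edgeR adjusted p = 0.91). It was −0.04 without B1M and −0.16 without B3M. In B1M both fractions were low (21.1 and 27.3 CPM), in B5M and B7M both were high (45.4 and 42.8 CPM, 42.6 and 44.6 CPM), and in B4M they differed (24.9 and 38.0 CPM).

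Rnf43 (chromosome 11, 87663087 to 87735539, plus strand) had the widest scatter of within-mouse differences of the 9 tested members (SD 0.90 on the log2 scale, against 0.86 for Lgr6). In B1M it was 3.16-fold higher in GFP-HI (30.2 against 9.55 CPM), in B3M 2.12-fold lower (11.2 against 23.7 CPM), and in B7F and B7M nearly level (16.3 against 16.8 and 28.7 against 29.3 CPM). In B4M and B5M it was lower in GFP-HI (21.7 against 24.3 and 17.9 against 24.8 CPM). The 2 large differences, of opposite sign, are those of the mice whose libraries detected the fewest genes in each fraction. In B1M the GFP-LO value of 9.55 CPM was the lowest of that fraction. The cause of these differences was not tested. The log2 fold change was −0.04 over all mice (95% interval −0.63 to 0.55, edgeR adjusted p = 0.98), −0.35 without B1M and 0.17 without B3M.

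Axin1, the constitutive scaffold of the destruction complex (chromosome 17, 26138686 to 26195811, plus strand), had 22.9, 28.9 and 38.4 CPM in the lowest, median and highest GFP-HI libraries, against 27.0, 35.0 and 43.5 CPM in GFP-LO. It was lower in GFP-HI in B1M and B4M (1.57-fold and 1.90-fold) and within 1.08-fold in the other 4 mice. Its log2 fold change was −0.24 (95% interval −0.59 to 0.11, edgeR adjusted p = 0.79), −0.16 without B1M and −0.11 without B4M.

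Axin2, the inducible scaffold and a common readout of β-catenin activity (chromosome 11, 108920349 to 108950781, plus strand), was lower in GFP-HI in 5 mice and higher in B1M. The pairs, GFP-HI then GFP-LO, were 9.06 and 15.5 CPM in B3M, 7.77 and 16.3 CPM in B4M, 16.9 and 18.0 CPM in B5M, 7.11 and 13.1 CPM in B7F, and 18.7 and 27.0 CPM in B7M. In B1M they were 19.5 and 9.92 CPM. The fractions overlapped, and the log2 fold change was −0.40 (95% interval −0.96 to 0.16, edgeR adjusted p = 0.79). Leaving out B1M moved it to −0.65, which still did not pass (edgeR adjusted p = 0.22), and leaving out B1M and B3M gave −0.61 (edgeR adjusted p = 0.15). Without B4M it was −0.27 (edgeR adjusted p = 0.88).

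**Figure D4:**
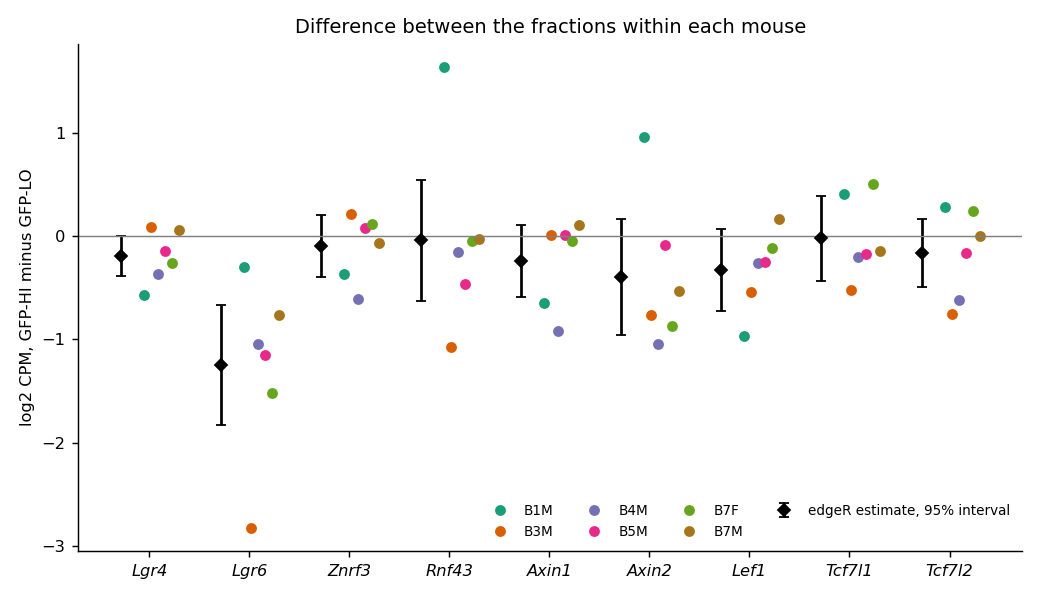
Within-mouse difference in log2 CPM, GFP-HI minus GFP-LO, for each tested member (coloured points, 1 per mouse), with the edgeR log2 fold change and its 95% interval in black. The 6 points of Lgr6 lie between −2.83 and −0.30, those of the other genes lie on both sides of 0, and the highest points of Rnf43 (1.64) and Axin2 (0.96) are both B1M.

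None of the TCF/LEF factors passed the test. Tcf7l2, the most abundant of them, had 26.5, 45.5 and 53.1 CPM in the lowest, median and highest GFP-HI libraries and 35.2, 48.7 and 56.2 CPM in GFP-LO, with 3 mice lower and 3 higher (log2 fold change −0.16, 95% interval −0.49 to 0.16, edgeR adjusted p = 0.85). Its log2 fold change was −0.25 without B1M, −0.04 without B3M and −0.07 without B4M. Tcf7l1, often a repressor of Wnt targets in epithelial stem cells (chromosome 6, 72626380 to 72788956, minus strand), had means of 16.9 ± 5.06 and 16.7 ± 2.75 CPM (SD, n = 6), with 4 mice lower and 2 higher (log2 fold change −0.02, 95% interval −0.43 to 0.39, edgeR adjusted p = 0.99). It was −0.10 without B1M and 0.086 without B3M. In the deposited gene models 84 exonic bases of Tcf7l1 are shared with Gm15401 on the opposite strand, and whether the counting used strand is not given in the sources used here.

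Lef1, usually an activator and itself a Wnt target, was lower in GFP-HI in 5 of 6 mice. Its GFP-HI and GFP-LO levels were 12.3 and 24.2 CPM in B1M, 13.1 and 19.2 CPM in B3M, 16.1 and 19.4 CPM in B4M, 18.3 and 21.8 CPM in B5M and 12.2 and 13.3 CPM in B7F, and in B7M it was higher, at 25.1 and 22.3 CPM. The difference thus ranged from 1.97-fold lower to 1.12-fold higher, and the fractions overlapped. The log2 fold change was −0.33 (95% interval −0.73 to 0.07, edgeR adjusted p = 0.76), −0.20 without B1M, and −0.11 without B1M and B3M. The fourth family member, Tcf7, was at 4.56 ± 2.12 and 7.01 ± 2.97 CPM (SD, n = 6; log2 fold change −0.68, edgeR adjusted p = 0.74).

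The shares of the TCF/LEF genes in their summed level per kilobase are given for each fraction. Tcf7l2 made up 42.8% ± 4.55 in GFP-HI against 42.0% ± 4.62 in the GFP-LO libraries (n = 6, SD), Tcf7l1 27.6% ± 7.49 and 24.0% ± 3.45, Lef1 20.02% ± 4.94 and 21.8% ± 4.17, and Tcf7 9.56% ± 4.82 and 12.1% ± 3.75. Within mice the Tcf7l1 share was higher in GFP-HI in 5 of 6, from 39.7% against 29.0% in B1M to 19.7% against 19.4% in B7M, and in B5M it was 21.0% against 21.4%. The shares of Tcf7l2 and Lef1 were each higher in GFP-HI in 3 of 6 mice and that of Tcf7 in 2 of 6.

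Lef1 (chromosome 3, 131110297 to 131224357) and Tcf7l2 (chromosome 19, 55741810 to 55933655), both on the plus strand, have internal starts in RefSeq beside the outermost one, 4 promoter windows for Lef1 and 2 for Tcf7l2. The windows with a motif are both internal, and they are printed because gene-level counts add transcripts from every start and cannot show which start was used. Capitals mark the motif, TACAAAG (the reverse complement of CTTTGTA) in Lef1 and CTTTGTT in Tcf7l2.
Lef1 internal start, chr3:131156044-131156343, plus strand: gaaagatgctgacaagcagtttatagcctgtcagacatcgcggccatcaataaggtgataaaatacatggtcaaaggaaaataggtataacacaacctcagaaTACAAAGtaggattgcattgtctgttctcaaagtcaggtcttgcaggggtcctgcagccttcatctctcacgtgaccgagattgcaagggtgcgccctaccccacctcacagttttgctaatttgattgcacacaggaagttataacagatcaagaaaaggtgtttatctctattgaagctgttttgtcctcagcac
Tcf7l2 internal start, chr19:55895071-55895370, plus strand: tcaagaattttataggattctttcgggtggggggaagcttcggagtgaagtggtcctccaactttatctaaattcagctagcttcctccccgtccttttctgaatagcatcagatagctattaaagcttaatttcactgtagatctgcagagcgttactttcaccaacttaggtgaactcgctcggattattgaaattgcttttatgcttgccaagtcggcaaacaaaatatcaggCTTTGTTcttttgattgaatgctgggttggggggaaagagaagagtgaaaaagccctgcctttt

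Over the set, 0 of the 9 tested members were called higher and 0 lower by edgeR, where 0.469% of all 11719 tested genes were called higher and 0.0597% lower. Lgr6 and Lgr4 had an unadjusted p under 0.05 (4.4e-04 and 0.0498), where 7.24% of all genes did, and DESeq2 called 1 member, Lgr6. All 9 log2 fold changes were negative, as were those of 6218 of all 11719 tested genes. The members had a median of −0.19 beside −0.02 over all tested genes. For Znrf3, Rnf43 and Tcf7l1, near 0, the sign changed when single mice were left out. Counted by mouse, 9 of 9 members were lower in GFP-HI in B4M, 7 in B5M, 6 in B3M and B7F, and 5 in B1M and B7M. Over all tested genes the median within-mouse log2 difference ran from −0.03 in B1M to 0.01 in B3M. The intervals of the 8 other tested genes exclude a change as large as the 2.37-fold of Lgr6 in the same direction, and they leave room for smaller ones, down to log2 −0.96 for Axin2.

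Differences between mice, which did not enter the choice of genes, were tested in the same fit. Across all 6 mice 0 of the 9 tested members were called (edgeR F-test of the 5 mouse terms), where 9.68% of all genes were, and the smallest adjusted p was 0.15 for Znrf3. Without B1M the test called Axin2 (edgeR adjusted p = 0.033), where 12.9% of genes were called. With B1M and B3M both left out it called Axin2, Lef1 and Rnf43 (edgeR adjusted p = 0.0058, 0.039 and 0.0496), where 14.7% of genes were called. In those 4 mice the mean of both fractions was highest in B7M for each of the 3 genes, and lowest in B7F. For Axin2 it was 22.8 CPM in B7M and 10.1 CPM in B7F, for Lef1 23.7 and 12.8 CPM, and for Rnf43 29.0 and 16.6 CPM. B7F is the only mouse of its age, so age and mouse cannot be told apart.

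The rest of the pathway, in 5 lists of 68 genes with 56 tested, gave 0 calls in either direction by edgeR, where 0.529% of all genes were called. An unadjusted p under 0.05 was reached by 9 of the 56, 8 of them lower in GFP-HI. Over all tested genes 7.24% reached it, 504 higher and 344 lower in GFP-HI. DESeq2 called 3 pathway genes (Tnfrsf19, Ccnd1 and Fzd3), where it called 1.22% of all genes. Without B1M edgeR called Ccnd1 alone, where 0.802% of genes were called, and without B1M and B3M it called the same 3 as DESeq2, where 1.26% were.

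Other targets of β-catenin had the lowest median of the lists. Of 8 tested, 7 had a negative log2 fold change, with a median of −0.29. Tnfrsf19, also called Troy, a receptor of the TNF family, was lower in 6 of 6 mice, at 44.4 ± 14.2 CPM in GFP-HI against 67.1 ± 17.8 in the GFP-LO libraries (n = 6; log2 fold change −0.61, edgeR adjusted p = 0.063). Ccnd1, the cyclin of G1 phase, was lower in 6 of 6 mice, at 55.1 ± 10.1 and 74.2 ± 15.2 CPM (SD, n = 6; log2 fold change −0.43, edgeR adjusted p = 0.094). Bambi, a pseudoreceptor that dampens TGF-β and BMP signals, was lower in 6 of 6 mice, at 11.5 ± 3.35 and 16.6 ± 1.86 CPM (SD, n = 6; log2 fold change −0.58, edgeR adjusted p = 0.50). Cd44 had a log2 fold change of −0.15 (unadjusted p = 0.0496, edgeR adjusted p = 0.68) and the low-count Ascl2 one of −0.58 (edgeR adjusted p = 0.85), each lower in 5 of 6 mice. For Myc, Apcdd1 and Sox9 it was −0.04, −0.06 and 0.03.

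Receptors for Wnt went in both directions, with 7 of 11 tested positive and a median of 0.04. Fzd3 was higher in GFP-HI in 6 of 6 mice, as 3.25% of all genes were, at 41.3 ± 12.7 and 23.8 ± 9.07 CPM (SD, n = 6). Its log2 fold change was 0.81 (edgeR adjusted p = 0.14), with the largest difference in B1M (60.3 against 14.4 CPM). Fzd1 was lower in 6 of 6 mice and Fzd10 in 5 (log2 fold changes −0.36 and −0.52, edgeR adjusted p = 0.53 and 0.66). The co-receptor genes Lrp5 and Lrp6 had log2 fold changes of −0.11 and 0.04.

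Genes of the destruction complex and its relay were close to level, with a median of −0.05 over 20 tested. Ctnnb1, which encodes β-catenin, was at 686 ± 60.5 and 728 ± 46.4 CPM (SD, n = 6; log2 fold change −0.09, edgeR adjusted p = 0.79). Csnk1a1, the casein kinase that primes β-catenin for degradation, was at 337 ± 32.8 and 380 ± 23.8 CPM (log2 fold change −0.17, edgeR adjusted p = 0.62), and Csnk1e had a log2 fold change of −0.35 (edgeR adjusted p = 0.71). Among 17 tested partners of TCF the median was −0.09, and the co-repressor gene Tle3 had the smallest p, at 56.0 ± 13.1 and 72.6 ± 4.94 CPM and lower in 6 of 6 mice (log2 fold change −0.40, edgeR adjusted p = 0.37). Its relative Tle1 had a log2 fold change of 0.35 (edgeR adjusted p = 0.73).

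**Figure D5:**
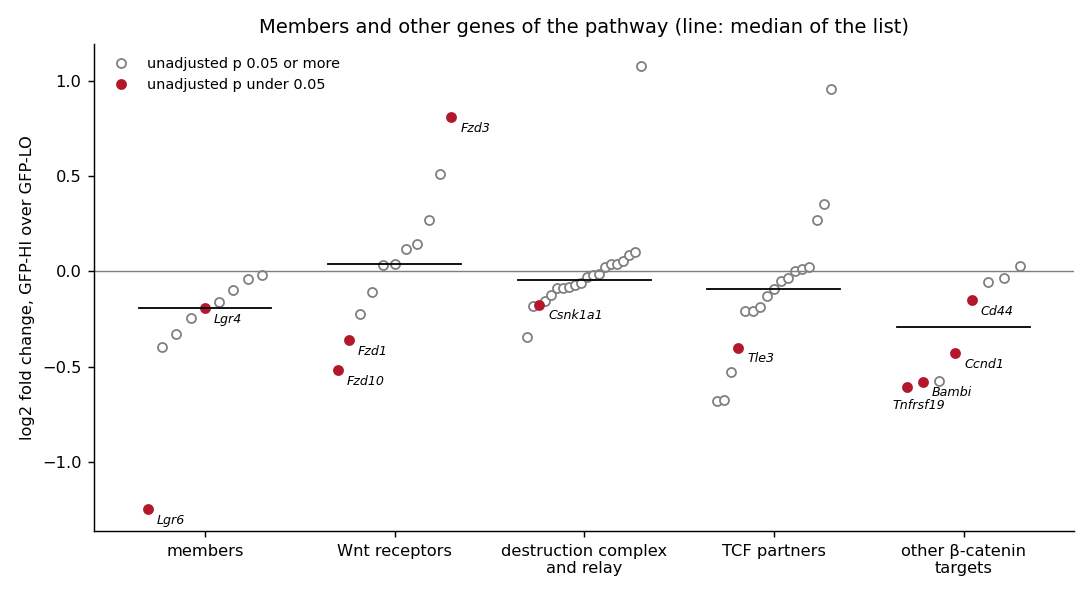
edgeR log2 fold change, GFP-HI over GFP-LO, of each tested member and of each tested gene in 4 pathway lists (no R-spondin was tested), with filled red points for an unadjusted p under 0.05 and a line at each list's median. Lgr6 lies lowest of all the genes plotted at −1.25, and the medians run from −0.29 for the other β-catenin targets to 0.04 for the Wnt receptors.

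The genes most like Lgr6 were sought among the 9562 other tested genes with a mean of at least 5 CPM, as those whose 6 within-mouse log2 differences lay nearest to its own (mean absolute distance over the 6 mice). Heph, which encodes the ferroxidase hephaestin, 1110059G10Rik, Zfp784 and Rilpl2 were among the 5 nearest, at distances of 0.51, 0.53, 0.54 and 0.55, against a median of 1.32 over all genes ranked. Like Lgr6 these 4 had their lowest value in B3M, between −3.29 and −2.13. Those values rest on 6, 8, 5 and 11 counts, in the order named, in the GFP-HI library of B3M. That library was one of those with few genes detected (12810). In the other mice the differences of these 4 genes ran from −1.50 (Heph in B4M) to 0.52 (Zfp784 in B7F). None of the 4 passed over all genes (edgeR adjusted p = 0.49 to 0.78), and their means were 3.92 to 10.6 CPM in either fraction. None of the other members was among the 5 nearest.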

How the data were processed

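Expression was measured in 12 libraries, the GFP-HI and GFP-LO fractions of 6 mice, made with the NuGEN SoLo kit per the labels' protocols. The deposited values are whole read counts per gene over annotated exons, not normalised, per the file headers. The programs bcl2fastq (version 2.20.0), featureCounts, FastQC, R (version 3.4.1) and DESeq2, and the builds mm10 and GRCm38, are listed in the submitters' processing notes. Aligner, annotation release, strand setting and treatment of multi-mapping reads: not given in the sources used here. Every count column matched 1 library by name, 0 were left unused, and 0 pairs of libraries were identical.

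The test was edgeR's (version 4.0.16, in R 4.3.3) robust quasi-likelihood F-test with mouse as a block, two-sided. A group-wise filter required a count of 10 and a total of 15, TMM (trimmed mean of M-values) factors scaled the library sizes, and p-values were adjusted by Benjamini-Hochberg over all 11719 tested genes with a threshold of 0.05. Standard errors are the log2 fold change over the root of F, and 95% intervals use the test's degrees of freedom. Within-mouse differences are of log2 CPM with a prior count of 2. The code was tested on simulated data. Alternatives were DESeq2 1.42.0, other size factors, filters and left-out mice.

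Both libraries of a mouse carry its code in their titles, and the series text speaks of matched samples. Deviations from the group mean correlated at 0.23 to 0.49 within a mouse. The members, gene lists and naming rule were chosen with earlier results of these data known. By that rule the text names all members, the R-spondins, Tcf7, the 3 genes of smallest p and any called gene in each pathway list, the most abundant gene of each marker list and the 5 genes nearest to Lgr6, of which 1 is not reported here. Other names, such as Myc, Cd44, Ascl2, Lrp6, Pdgfra and Notum, were chosen after their values were seen. The labels name no batch. Poisson intervals and count limits cover counting error only.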

Additional observations from a re-analysis of the deposited data

How the results depend on the processing

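Over 13 alternatives, 12 in edgeR and 1 in DESeq2, the 9 tested members gave 117 log2 fold changes, of which 105 kept both the sign and the side of the threshold. Those that did not concern Lgr6, which was called under 4 alternatives (adjusted p from 1.5e-06 without a count filter to 0.57 with no replicate block over all 13), and 3 genes near 0. With single mice left out, the log2 fold change ran from −0.16 to 0.0015 for Znrf3, from −0.35 to 0.17 for Rnf43 and from −0.13 to 0.086 for Tcf7l1, and Tcf7l1 was 0.019 with no replicate block.

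Members called lower numbered 0 with all mice, 1 with DESeq2, 1 without a count filter, 1 without both B1M and B3M, and 0 to 1 with single mice left out; members called higher numbered 0 throughout. Pathway genes called numbered 0, and 3, 3, 3 and 0 to 1 in the same order. Over all genes 55 were higher and 7 lower. These counts became 120 and 23 with DESeq2, 127 and 45 without a count filter, 117 and 34 without B1M and B3M, and 0 and 0 with no replicate block, where the pairing of the libraries is ignored. With single mice left out they ran from 29 to 81 and from 2 to 14. Genes called between mice numbered 1134, and 2029, 2338, 1754 and 684 to 1527 in the order of settings above, and members called between mice 0, then 0, 0, 3 and 0 to 1. The causes were not tested. Low counts limit Lgr5 and the R-spondins, which no setting with a count filter could test.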

Other observations

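Further feedback genes of the Wnt pathway were under the count filter. Notum, a secreted enzyme that inactivates Wnt ligands, had at most 10 counts in a library, with means of 0.07 CPM in GFP-HI against 0.45 in the GFP-LO libraries, close to the level that a count of 0 allows. Wif1, a secreted Wnt inhibitor, had at most 21 counts, Nkd1 and Nkd2 at most 12 and 25, and Sp5 and Dkk1 at most 2 and 3.

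Between mice, 3 of the 56 tested pathway genes differed in the edgeR F-test over all 6 mice, where 9.68% of all genes did. They were Myc (adjusted p = 0.0024), Crebbp, a histone acetyltransferase that acts with β-catenin (adjusted p = 0.038), and Tnfrsf19 (adjusted p = 0.045). In Tnfrsf19 the GFP-LO libraries ran from 44.0 CPM in B7F to 93.2 CPM in B7M and the GFP-HI libraries from 32.1 CPM in B7F to 67.8 CPM in B7M, and in each mouse GFP-HI was the lower.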
